A study of Mus musculus with 9 samples.

Results

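Dkk1, Rspo2 and Lgr5 are a secreted antagonist of Wnt signalling, a secreted R-spondin that strengthens it and a receptor that R-spondins bind. They were taken as the probes that the study's own table of altered genes names Dkk1, Rspo2 or Lgr5, 1 probe each, which makes 3 of the 302 genes named there and 3 of the 23473 probes on the array. That table was drawn up by the study on 8 of the same 9 arrays, from probes that differed between groups in an analysis of variance and by at least 4-fold, so the tests below are not independent evidence that these genes differ. The 9 arrays held RNA of cells sorted from mouse embryos of the P0-Cre/Floxed-EGFP cross at E12.5, and all 4 groups carry both transgenes. Cre is driven by the promoter of myelin protein zero, and EGFP marks cells in which Cre has recombined the reporter, that is, cells whose lineage has used this promoter, mainly neural crest. The groups were craniofacial EGFP+ cells (Cp, 2 arrays), trunk EGFP+ cells (Tp, 3 arrays), craniofacial EGFP- cells (Cn, 2 arrays) and trunk EGFP- cells (Tn, 2 arrays). Heart fields had been removed from the trunk, and the embryos were of a mixed C57/BL6J and ICR background. The sorted EGFP+ fraction is not 1 cell type, and EGFP- cells are all other cells of the region, blood included. Beside the arrays, the study measured Rspo2 by quantitative PCR at E12.5 and earlier stages. It lists the gene as up-regulated in craniofacial neural crest cells. Those measurements were not analysed here.

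Wnt proteins act on cells through Frizzled receptors and the co-receptors Lrp5 and Lrp6, and stabilised beta-catenin then works with TCF/LEF factors at target genes. Dkk1 binds the co-receptors and blocks this step, and mouse embryos without it lack anterior head structures. R-spondins such as Rspo2 bind Lgr receptors together with the membrane ubiquitin ligases Rnf43 and Znrf3, which otherwise remove Frizzled from the cell surface, so that more receptor stays there. Lgr5 is such a receptor and is known as a marker of stem cells in the intestine, and both Lgr5 and Dkk1 are themselves targets of Wnt signalling in several tissues.

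The sequence shown for the antagonist is the 250 bases before its start in RefSeq (build GRCm38.p6, chr19:30549497-30549746, minus strand), because Dkk1 is known as a target of TCF/LEF factors. Capitals mark matches to the core of the TCF/LEF motif, the letters CTTTG followed by 2 letters that are each A or T, searched on both strands.
Dkk1 promoter: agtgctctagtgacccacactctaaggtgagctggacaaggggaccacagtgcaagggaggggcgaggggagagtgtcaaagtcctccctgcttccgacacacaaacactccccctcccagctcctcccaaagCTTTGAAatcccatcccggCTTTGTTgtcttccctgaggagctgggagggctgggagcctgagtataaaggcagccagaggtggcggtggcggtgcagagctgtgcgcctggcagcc
It holds 2 matches, the first starting 117 bases and the second 98 bases before the start, both on the gene's strand and not overlapping. Of 32851 promoters of the same 250 bases, 14.8% hold at least 1 match and 1.43% at least 2. A match is a description of the letters and does not show a bound site. Of the 3 genes, 1 has a promoter in the table used.

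Signal limited the precision throughout. The median spot on the 8 arrays was 2.28 to 3.21 times the mean of the array's blank spots, and 1.81 times on Tp replicate 3, the array outside the study's table. All 3 probes were above the blank limit (mean plus 2 SD of the blank spots) on all 9 arrays, the least being 1.66 times that limit, for Rspo2 and Lgr5 on Tp replicate 3. Differences were tested with limma over 21796 probes on 8 arrays, on log2 values corrected against the blank spots, and an adjusted p under 0.05 was taken as passed. Among genes listed as neural crest and glia markers, 6 of 7 were named, and 5 of these were higher in Tp than in Tn, but 2 were higher in Cp than in Cn. All 6 were lower in Cp than in Tp, and the study's choice of genes shaped which of them have names.

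The antagonist Dkk1 was high in craniofacial EGFP+ cells and low in the other 3 groups. Its deposited processed intensity, a linear value scaled so that each array has a median of about 25, was 214 and 162 in Cp, against 37.0, 41.4 and 26.7 in Tp, the last on replicate 3. It was 51.1 and 49.3 in Cn and 41.2 and 37.3 in Tn. Both Cp arrays lay above every other array, and the 2 trunk groups overlapped. In limma on the blank-corrected signal, Dkk1 was 2.88-fold higher in Cp than in Tp (log2 change 1.53 ± 0.08 SE, adjusted p = 0.000612) and 2.49-fold higher in Cp than in Cn (log2 change 1.32 ± 0.08 SE, adjusted p = 0.00154). By its fold, Dkk1 stood 77th from the top of the tested probes for Cp over Tp and 11th for Cp over Cn. The study chose the 3 members for a large range on these arrays, so their ranks in part follow from that choice. The correction adds an offset of 50 to the signal, which narrows the folds of dim probes by its construction, and in the processed values the same folds were 4.76 and 3.71.

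The ligand Rspo2 showed a graded pattern, highest in Cp, next in Cn, then Tn, and lowest in Tp. Its processed intensity was 164 and 158 in Cp, against 11.7, 16.2 and 15.8 in Tp. Cn arrays stood at 59.9 and 64.9, and Tn arrays at 24.9 and 24.7. In these values no 2 groups overlapped. On the blank-corrected signal Tp replicate 3 (6.373) lay above Tn replicate 2 (6.366). With the ring of pixels around each spot as background, Cn replicate 2 (6.34) lay below both Tn arrays (6.56 and 6.46). The Tp spots read 28 and 38 on the scanner, where the blank limit was 15.6 and 17.5, so the Tp level was measured but close to the blanks. Rspo2 rose in Cp against Tp, 3.77-fold on the blank-corrected signal (log2 change 1.92 ± 0.10 SE, adjusted p = 0.000607 in limma) and 11.7-fold in the processed values (adjusted p = 7.82e-05 in limma). The blank-corrected fold stood 22nd from the top of all tested probes. Against Cn, Rspo2 rose 1.92-fold in Cp (log2 change 0.94 ± 0.10 SE, adjusted p = 0.00935 in limma), a fold that stood 115th.

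The receptor Lgr5 followed the same order as the ligand, over a narrower range. Its processed intensity was 103 and 91.0 in Cp, against 18.2, 18.4 and 18.7 in Tp. In Cn it was 50.3 and 38.4, and in Tn 27.7 and 25.9. Again no 2 groups overlapped in these values. With the ring as background, however, each group overlapped the next. Cp replicate 1 (6.48) lay below Cn replicate 2 (6.69), and Cn replicate 1 (6.32) below Tn replicate 2 (6.37). Tn replicate 1 (6.139) lay below Tp replicate 1 (6.179) and Tp replicate 2 (6.144). Lgr5 was 2.47-fold higher in Cp than in Tp on the blank-corrected signal (log2 change 1.30 ± 0.08 SE, adjusted p = 0.00113 in limma) and 5.28-fold higher in the processed values. It was 1.58-fold higher in Cp than in Cn (log2 change 0.66 ± 0.08 SE, adjusted p = 0.0147 in limma). On the blank-corrected signal its folds stood 126th from the top of the tested probes for Cp over Tp and 362nd for Cp over Cn. Bulk arrays cannot tell fewer expressing cells from less RNA per cell, which holds for each of these levels.

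**Figure D1:**
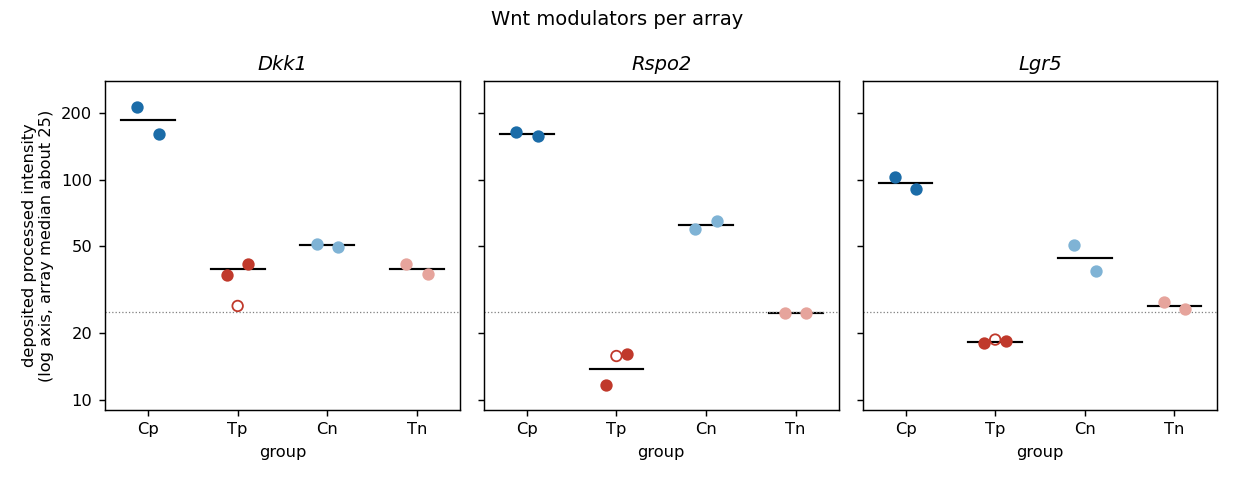
Deposited processed intensity (log axis) of Dkk1, Rspo2 and Lgr5 on each array of Cp, Tp, Cn and Tn. Filled points are the 8 arrays of the fits, the open point is Tp replicate 3, black lines are geometric means of the 2 filled points and the dotted line is the level of 25 near which each array has its median. Dkk1 is near 40 in Tp and Tn (37.0 to 41.4 on the filled points), whereas Rspo2 and Lgr5 step down over Cp, Cn, Tn and Tp.

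Between craniofacial and trunk EGFP+ cells, all 3 members passed in limma, all higher in Cp, where 7.04% of all tested probes passed in either direction and 3.04% were higher in Cp. The study's selection of these genes used that same contrast among others, so nothing is read from this count. Between Cp and Cn, again all 3 were higher in Cp, where 4.30% of tested probes passed and 1.51% were higher. Cp replicates decide part of this second count: without Cp replicate 1 Lgr5 (adjusted p = 0.0932) and Rspo2 (adjusted p = 0.0560) no longer passed in limma, nor did they without Cp replicate 2 (adjusted p = 0.110 for Lgr5 and 0.0797 for Rspo2). Dkk1 passed both comparisons whichever of the 8 arrays was left out. Tp replicate 3, which had no part in choosing the genes, read below both Cp arrays for each member. The Cp arrays did have a part in that choice, and Tp replicate 3 was the dimmest array relative to its blanks. Nothing is therefore read from this. Replicate 1 of all 4 groups shared a scan, replicate 2 of Cp and Cn shared another, and replicate 2 of Tp and Tn were scanned together apart from these. Within the scan that held all 4 groups, Cp minus Tp was 1.59 for Dkk1, 1.90 for Rspo2 and 1.24 for Lgr5 on the log2 scale, and Cp minus Cn was 1.43 for Dkk1, 0.96 for Rspo2 and 0.55 for Lgr5. A limma fit that took the scan as a block called all 3 in both comparisons. With all 9 arrays the Cp over Tp log2 fold changes were 1.59 for Dkk1, 1.86 for Rspo2 and 1.26 for Lgr5.

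Between trunk EGFP+ and trunk EGFP- cells, none of the 3 members passed (4.05% of tested probes did), with 2 of the 3 at an unadjusted p under 0.05. Dkk1 was level, with a log2 fold change of 0.01 for Tp over Tn (95% interval -0.18 to 0.20, adjusted p = 0.997 in limma). Rspo2 stood at -0.25 on the log2 scale (95% interval -0.48 to -0.01, adjusted p = 0.328 in limma) and Lgr5 at -0.21 (95% interval -0.41 to -0.01, adjusted p = 0.330 in limma). The processed values gave a larger difference for Rspo2, of -0.85 on the log2 scale, which did not pass either (adjusted p = 0.102 in limma). In these values ligand and receptor read lower on all 3 Tp arrays than on either Tn array, while for the antagonist the arrays of the fit overlapped. In the processed values 5.28% of tested probes passed and again 0 of the 3 members, 1 of them at an unadjusted p under 0.05.

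Between the EGFP- cells of both regions, Rspo2 passed and the other two members did not, where 0.922% of tested probes passed and 0.496% were higher in Cn. Rspo2 was 1.65-fold higher in Cn than in Tn (log2 change 0.73 ± 0.10 SE, adjusted p = 0.0421 in limma). This call is close to the threshold and was lost whichever of the 8 arrays was left out (adjusted p = 0.0843 to 0.191) and with the scan as a block (adjusted p = 0.0724). On the log2 scale Cn minus Tn was 0.43 ± 0.08 SE for Lgr5 (adjusted p = 0.104 in limma) and 0.22 ± 0.08 SE for Dkk1 (adjusted p = 0.405 in limma). In the order of levels, then, neighbours that did not differ beyond the test were Cn and Tn as well as Tp and Tn for Lgr5, and Tp and Tn for Rspo2. For Dkk1, Tp and Tn were level and neither Tp nor Cn differed from Tn beyond the test, while Cn and Tp were not compared.

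The difference between regions was larger in EGFP+ than in EGFP- cells for each member. The interaction, the log2 fold change of Cp over Tp minus that of Cn over Tn, was 1.31 for Dkk1 (SE 0.11, adjusted p = 0.00446 in limma), 1.19 for Rspo2 (SE 0.13, adjusted p = 0.0104) and 0.87 for Lgr5 (SE 0.11, adjusted p = 0.0158). Of all tested probes 5.15% passed here, and 2.24% in this direction. The study chose the members on the same 8 arrays, so these calls are not independent evidence. Lgr5 did not pass without Cp replicate 1, Cp replicate 2 or Tn replicate 1 (adjusted p = 0.0669, 0.0757 and 0.0578 in limma), and Rspo2 did not without Cp replicate 2 (adjusted p = 0.0513). Dkk1 passed whichever of the 8 arrays was left out. In the processed values the interaction was 1.89 for Dkk1 and 1.68 for Lgr5, and that of Rspo2 was 0.32 above that of Dkk1. The order of Dkk1 and Rspo2 thus depended on the scale. The comparisons share arrays, so their folds are not independent of one another.

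**Figure D2:**
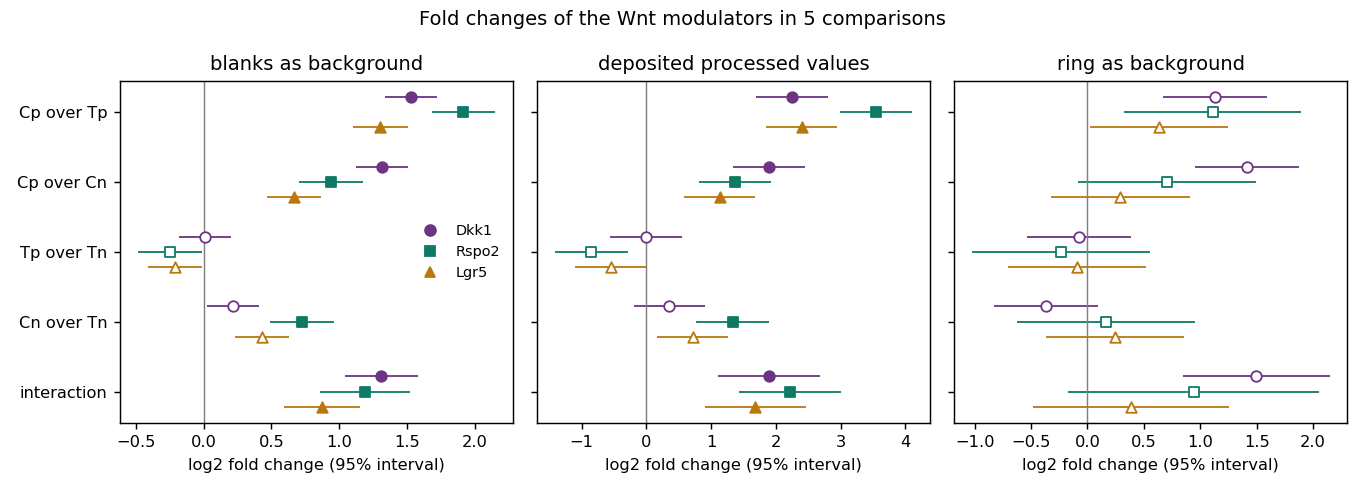
Log2 fold changes with 95% intervals (horizontal axis, a range of its own in each panel) of Dkk1 (circles), Rspo2 (squares) and Lgr5 (triangles) in 4 comparisons and the interaction, from limma with blank spots as background, in the deposited processed values and with the ring around each spot as background. Filled symbols passed an adjusted p of 0.05. In the first 2 panels all 3 members are filled for Cp over Tp, Cp over Cn and the interaction, and Rspo2 also for Cn over Tn, while no symbol is filled in the ring panel.

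Each call depended on what was taken as background. In the processed values, which follow the spot minus the blanks, the members that passed were those of the blank-corrected signal, at 8.03% of tested probes for Cp over Tp, 5.74% for Cp over Cn, 1.27% for Cn over Tn and 5.52% for the interaction. With the ring of pixels around each spot in place of the blank spots, none of the 3 members passed any comparison in limma, where the share of tested probes that passed was 0.197% for Cp over Tp, 0.0688% for Cp over Cn, 0.128% for Tp over Tn, 0.0321% for Cn over Tn and 0.0551% for the interaction. At an unadjusted p under 0.05, 5 of these 15 values passed, and all 3 members did in Cp over Tp. Log2 fold changes of Cp over Tp on this scale were 1.13 for Dkk1 (adjusted p = 0.152), 1.11 for Rspo2 (adjusted p = 0.413) and 0.63 for Lgr5 (adjusted p = 0.614). The ring followed the spots across probes, with a correlation of their logs of 0.909 to 0.985 on each array.

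For these probes the ring also differed between replicates. Lgr5 had a spot of 140 and a ring of 122 on Cp replicate 1, but a spot of 185 and a ring of 53 on Cp replicate 2. For Rspo2 the readings were 217 and 74 on Cp replicate 1 and 300 and 183 on Cp replicate 2. The SD of Rspo2 in Cp was 0.51 on the ring-corrected log2 scale and 0.10 on the blank-corrected one. In Cp, Dkk1 had the lowest rings relative to its spots, 0.290 and 0.184 of the spot on the 2 Cp arrays.

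**Figure D3:**
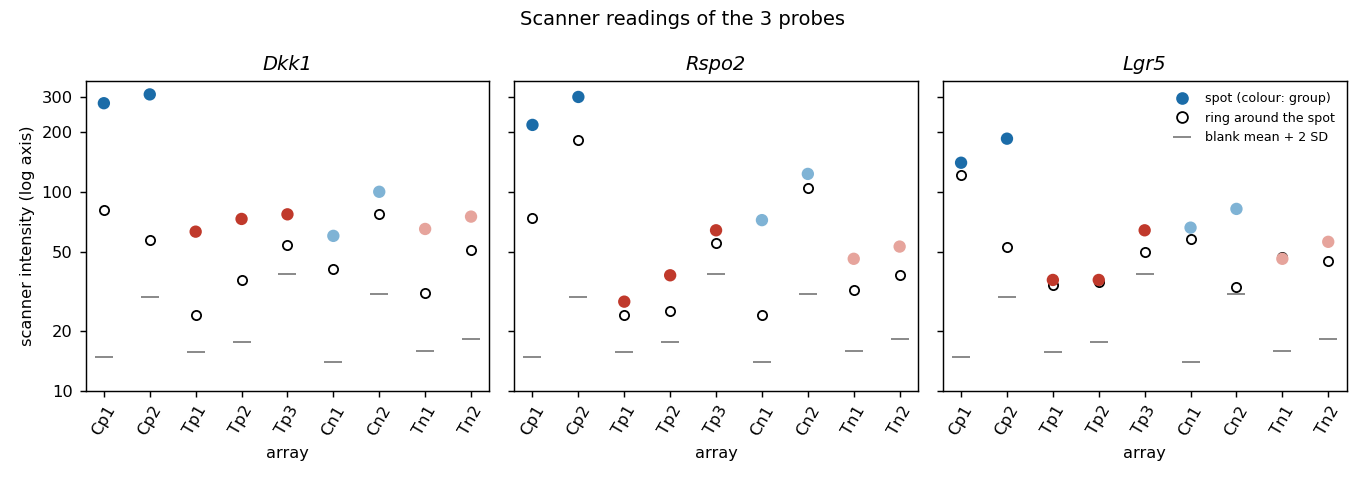
Scanner intensity (log axis) of the spot, of the ring around it and of the blank limit (mean plus 2 SD of the array's blank spots) for each of 9 arrays, by gene. Every spot lies above its blank limit, whereas the ring of Lgr5 is at or near the spot on Tp replicates 1 and 2 (34 against 36, and 35 against 36) and on Tn replicate 1 (47 against 46).

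The antagonist was compared with the ligand and its receptor by the log2 difference of 2 members within each array, over 4 craniofacial and 4 trunk arrays and over 4 EGFP+ and 4 EGFP- arrays. These 6 exact permutation tests are two-sided and cannot give a p below 0.0286. The Rspo2 minus Dkk1 difference was 0.02 in craniofacial and -0.43 in trunk arrays, 0.45 apart (exact p = 0.0286, adjusted p = 0.0571). The nearest craniofacial and trunk arrays of this pair lay only 0.00501 apart on the log2 scale, and they overlapped with median scaling (exact p = 0.0571, adjusted p = 0.114). Rspo2 minus Lgr5 was 0.41 in craniofacial and -0.04 in trunk arrays, also 0.45 apart with no overlap (exact p = 0.0286, adjusted p = 0.0571). Lgr5 and Dkk1 did not separate by region (difference of -0.01, exact p = 0.943, adjusted p = 0.943).

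Between EGFP+ and EGFP- arrays the pair that separated was Lgr5 and Dkk1. The Lgr5 minus Dkk1 difference was -0.61 in EGFP+ and -0.17 in EGFP- arrays, 0.43 lower in EGFP+ arrays with no overlap (exact p = 0.0286, adjusted p = 0.0571). Rspo2 minus Dkk1 was -0.36 in EGFP+ and -0.04 in EGFP- arrays, a difference of -0.32 with overlap (exact p = 0.200, adjusted p = 0.300). Rspo2 minus Lgr5 was 0.25 in EGFP+ and 0.13 in EGFP- arrays, a difference of 0.12 with overlap (exact p = 0.686, adjusted p = 0.823). None of the 6 tests passed an adjusted p of 0.05. In the processed values the same 3 pairs separated, by 1.14 and 0.88 for the region and by -0.65 for EGFP, with the same p-values. With the ring as background all 3 overlapped, at 0.25 for Rspo2 minus Dkk1 (exact p = 0.429) and 0.20 for Rspo2 minus Lgr5 (exact p = 0.629) between regions, and at -0.57 for Lgr5 minus Dkk1 by EGFP (exact p = 0.143). With Tp replicate 3 added, the Rspo2 minus Dkk1 difference between regions (0.40) and the Lgr5 minus Dkk1 difference by EGFP (-0.35) overlapped, and Rspo2 minus Lgr5 passed (0.45, exact p = 0.00794, adjusted p = 0.0476). The added array lowers the smallest p that the exact test can give to 0.00794. On that array the Rspo2 and Lgr5 spots both read 64, at 1.66 times the blank limit, so their difference there was 0.

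**Figure D4:**
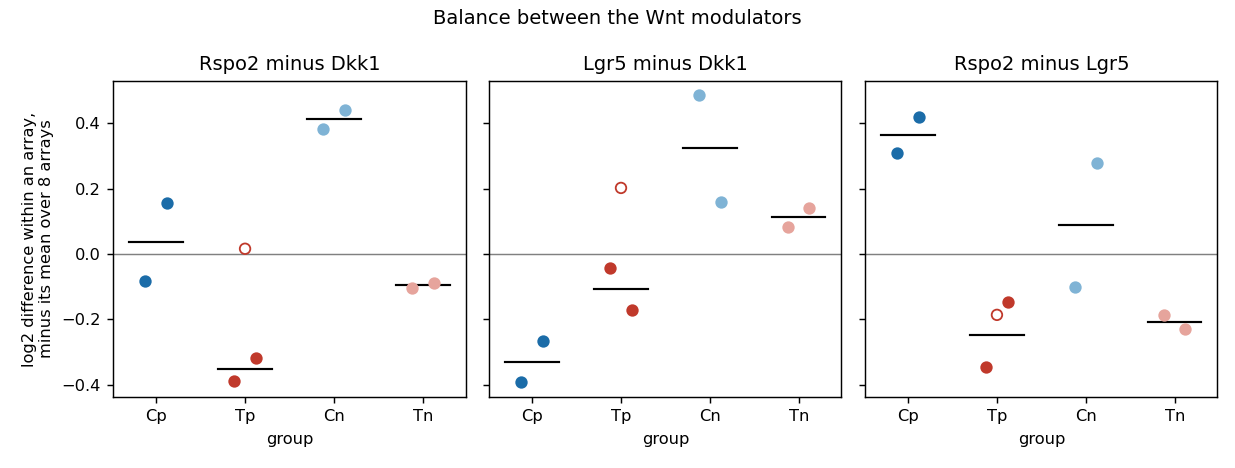
Log2 difference of 2 members within an array on the blank-corrected signal, minus its mean over 8 arrays, by group. Filled points are the 8 arrays of the tests, open points Tp replicate 3, and black lines the mean of the 2 filled points. Rspo2 minus Dkk1 is highest in Cn (0.38 and 0.44) and lowest in Tp (-0.39 and -0.32), and Lgr5 minus Dkk1 is lowest in Cp (-0.39 and -0.26). That last order depends on the scale. In the processed values, not centred, Lgr5 minus Dkk1 was -1.06 and -0.83 in Cp and -1.03 and -1.17 on the filled Tp arrays.

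The genes whose pattern was most like each member were sought among the 305 other named probes, by Pearson's r over 8 arrays on the blank-corrected signal. For Dkk1 they were Omd, a proteoglycan of bone (r = 0.975), Acp1, an acid phosphatase (r = 0.966), EG636791 (r = 0.966), the vasopressin receptor Avpr1a (r = 0.957) and the Ras-like gene Rerg (r = 0.953). For Rspo2 they were Cart1, a homeobox gene of craniofacial mesenchyme (r = 0.995), Rerg (r = 0.986), Cpxm2, of the carboxypeptidase family (r = 0.985), Acp1 (r = 0.984) and Lgr5 (r = 0.983). For Lgr5 they were Sox18, a transcription factor of endothelium (r = 0.993), the calcium-binding S100a4 (r = 0.988), Cart1 (r = 0.985), Acp1 (r = 0.983) and Avpr1a (r = 0.983).

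The ligand and receptor were nearer to each other than either was to the antagonist on this measure. Rspo2 ranked 6th for Lgr5, whereas Dkk1 ranked 15th for Lgr5 (r = 0.924) and 16th for Rspo2 (r = 0.929). These 8 points share arrays and only 4 groups, and the probes were chosen by the study for differing between them, so r is a description. The order of the nearest genes depends on the scale: in the processed values Omd came 1st for Lgr5 (r = 0.985) and Sox18 6th (r = 0.981), and Rerg came 1st for Dkk1 (r = 0.951) and Omd 6th (r = 0.890), while Cart1 was 1st for Rspo2 on both scales. In the processed values r was 0.983 between Rspo2 and Lgr5, 0.920 between Lgr5 and Dkk1 and 0.884 between Rspo2 and Dkk1. All these genes and the 3 members stood in 1 cluster of the study's table, of 20 probes, 19 of them named. The study formed its clusters from Pearson's correlation on the same 8 arrays. Sharing a cluster was therefore built in, and nothing is read from it. Among those 19, Dkk1 had the highest fold of Cp over Cn and the 17th highest of Cn over Tn (cluster median log2 fold change of 0.69 and 0.44), and Rspo2 was 5th and 9th.

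Listed marker genes of other cell types also differed between the groups. Only probes of the study's table of altered genes have names, so the marker counts here and below were bound to be high. Over all tested probes, 7.04% passed for Cp over Tp, 4.30% for Cp over Cn, 4.05% for Tp over Tn and 0.922% for Cn over Tn. Of 6 genes listed for craniofacial mesenchyme 5 were named, and all 5 were higher in Cp than in Tp in limma, 3 were higher in Cp than in Cn and 4 were higher in Cn than in Tn. Their summed processed intensity was 828 to 1070.5 in Cp and 66.5 to 78.5 in Tp. It was 419.6 to 431 in Cn and 75.3 to 79.0 in Tn, and Pax7 was below the blank limit on all 3 Tp arrays. This sum was thus high in both craniofacial groups, as Rspo2 was. The 10 genes listed for peripheral neurons, all named, on 11 probes, ran the other way, every probe being lower in Cp than in Tp and higher in Tp than in Tn. Their sum was 1376 to 1801 in Cp, 10169.6 to 12282 in Tp, 3069.5 to 3303 in Cn and 1978 to 2211 in Tn, highest in Tp, where Rspo2 and Lgr5 were lowest. The part of either list in the members' levels was not tested.

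Sox18, the probe most like Lgr5 on the blank-corrected signal, belongs to the 7 genes listed for endothelium, 4 of them named. Of these 4, 3 were higher in Cp than in Tp in limma on the blank-corrected signal, and 3 were lower in Tp than in Tn. In Cp against Cn 1 was higher and 1 lower, while 0 passed between Cn and Tn. In the processed values 3 passed as higher and 1 as lower in Cp than in Tp, where 8.03% of all tested probes passed. The summed processed intensity of the 4 genes was 147 to 177 in Cp and 26.3 to 39.3 in Tp. In the EGFP- groups it was 125 to 134 in Cn and 174 to 197 in Tn. The sums of Cp and Tn overlapped, and those of Tp were the lowest, as Lgr5 and Rspo2 were in Tp. Tal1 was below the blank limit on 1 of the 2 Cp arrays. Of the 7 forebrain genes, all named, 7 were higher in Cn than in Tn and 6 were lower in Cp than in Cn. Their sum was 453 to 457 in Cp, 294 to 360.3 in Tp, 3093 to 3162 in Cn and 315 to 316 in Tn, an order that none of the 3 members showed. Of 5 erythroid genes, all named, on 7 probes, every probe was lower in Cp than in Cn and in Tp than in Tn, with sums of 899.9 to 1649 in Cp, 1698 to 2559 in Tp, 103673 to 135713 in Cn and 99407 to 121385 in Tn. The part of these cells in the EGFP- levels of the members was not tested.

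Of 89 genes listed for the Wnt pathway (ligands, receptors, antagonists, R-spondins, transducers and targets), 4 had a named probe: the 3 members and the ligand Wnt8b, named here after its values were seen. Wnt8b was lower in Cp than in Cn (log2 fold change of -0.33, adjusted p = 0.0291 in limma, and -2.53 in the processed values, adjusted p = 0.000464), where the 3 members were higher. It did not pass for Cp over Tp (log2 fold change of -0.03, adjusted p = 0.866 in limma). For Cn over Tn its log2 fold change was 0.33 (adjusted p = 0.0664 in limma), and 2.40 in the processed values, where it passed (adjusted p = 0.00162). The interaction was -0.35 (adjusted p = 0.0551 in limma), and -2.49 in the processed values, where it passed (adjusted p = 0.00492). With the ring it passed in none of these (adjusted p = 0.340 or higher in limma). Its processed intensity was 1.90 to 2.62 in Cp and 1.25 to 2.46 in Tp, with 13.1 and 12.6 in Cn and 2.33 to 2.57 in Tn. The Wnt8b spots read 1.65 and 1.48 times the blank limit in Cn and 0.93 to 1.15 times it on the other arrays. All Wnt8b values, those of Cn included, were thus close to the blanks. The rest of the list has no probe name in the table used and was not analysed here, so the balance of ligands, receptors and targets around the 3 members is not described by these data.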

How the data were processed

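RNA of sorted cells was amplified, labelled with Cy5 and hybridised by the authors to 1-colour 3D-Gene arrays. The authors deposited scanner readings (the intensity of every spot and its surrounding ring) and a processed intensity per probe, linear and scaled to an array median of about 25; their formula is not given in the sources used here. Empty cells of that table took the lowest value of their array. Here the median spot intensity was corrected with normexp (offset 50) against the mean of the array's blank spots, quantile normalised, put on the log2 scale and averaged per probe, leaving out spots marked as bad. A probe was tested if it exceeded the blank limit (mean plus 2 SD) on at least 2 arrays. The test was limma 3.58.1 (R 4.3.3) in 1 fit of 4 groups and 8 arrays with 4 residual degrees of freedom, with Benjamini-Hochberg adjustment over all probes. The study used the same 8 arrays; Tp replicate 3 enters only where it is named. Blanks were preferred to the ring because the ring follows the spot, a choice made with earlier results of these data known, as were the members, the gene lists and the tests. Gene names come from the study's table (306 of 347 probes named); its expression values were not used. Named genes are the 3 members, Wnt pathway genes past the test in Cp over Tp, and the 5 most like each member. In simulated data for Cp over Tp on 21796 probes, 72.5% of 200 probes with a log2 fold change of 1 were recovered (5 false calls) and 93.5% of those with 2 (15 false calls). The paper calls its samples biological duplicates and the labels name no embryo or litter, so the p-values cover only array-to-array spread, which may be technical. Alternatives were the ring, offsets of 16 and 0, the processed values, median scaling and no filter. Others were all 9 arrays, the scan (day of scanning) or the replicate as a block, and each array left out.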

Additional observations from a re-analysis of the deposited data

Results flagged for a closer look

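The difference between craniofacial and trunk cells was not the same in EGFP+ and EGFP- cells for any of the 3 members, by the interaction term of limma. The log2 fold change of Cp over Tp exceeded that of Cn over Tn by 1.31 for Dkk1 (adjusted p = 0.00446), by 1.19 for Rspo2 (adjusted p = 0.0104) and by 0.87 for Lgr5 (adjusted p = 0.0158). With the ring as background these were 1.49, 0.94 and 0.39, and none passed (adjusted p = 0.190, 0.674 and 0.875 in limma). On the blank-corrected signal 5.15% of all tested probes passed the interaction, and 2.24% in this direction. Of the 19 named probes in the members' cluster, 15 were called higher and 1 lower. The study labels this cluster as up-regulated in Cp, so that count was bound to be high and nothing is read from it. The study chose these genes on the same 8 arrays, so the calls are not independent evidence. No group had 4 arrays, so single arrays were not screened as outliers.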

How the results depend on the processing

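For Cp over Tp, the 3 members kept their direction and passed under every alternative run but the ring. With the ring as background, log2 fold changes no longer past the test were 1.13 for Dkk1, 0.63 for Lgr5 and 1.11 for Rspo2 in Cp over Tp, 1.42, 0.29 and 0.71 in Cp over Cn, 1.49, 0.39 and 0.94 in the interaction, and 0.17 for Rspo2 in Cn over Tn. Dkk1 then changed sign in Cn over Tn (-0.36), and so did the Lgr5 minus Dkk1 difference between regions (0.057). That difference was also positive with the processed values (0.25) and with offsets of 16 (0.15) and 0 (0.35), and Rspo2 minus Lgr5 by EGFP was -0.036 in the processed values. Rspo2 in Cn over Tn lost its call with median scaling (0.67, adjusted p = 0.0602), with a scan block (0.64) and with the processed values and that block (1.43). Dkk1 in Tp over Tn, near 0, was -0.078 with the ring, -0.052 with 9 arrays, -0.0036 in the processed values (with either block too) and -0.19 in those with 9 arrays. The Dkk1 interaction was 1.51 within scan 1, the one scan that held all 4 groups, and Rspo2 minus Lgr5 between regions passed with 9 arrays (0.45). Of the values within scan 1, 14 moved by less than the replicate spread. With 2 arrays per group, a comparison of 2 groups cannot move beyond that spread by its construction. For those comparisons nothing is read from this count.

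Counts of probes that passed were 1535 for Cp over Tp, 937 for Cp over Cn, 882 for Tp over Tn, 201 for Cn over Tn and 1122 for the interaction. With the ring they were 43, 15, 28, 7 and 12. The 9 arrays gave 1350 for Tp over Tn and 339 for Cn over Tn, and 1499 and 303 in the processed values. A scan block gave 2262 for Cp over Cn, 1683 for Tp over Tn and 2521 for the interaction, and 2361, 1886 and 2343 in the processed values. The replicate numbers were not taken as pairs, since the labels tie them to nothing shared and the correlation of deviations ran from 0.0915 (Cn and Tn) to 0.598 (Cp and Cn, whose replicates share scans; 0.547 for Tp and Tn, which also share them). With the replicate block, 1410 passed for Cp over Cn, no member's call changed, and in the processed values the block gave 2304 for Cp over Tp, 1662 for Cp over Cn, 1481 for Tp over Tn and 440 for Cn over Tn. The processed values with 9 arrays or a block were added after the data were seen. In Cp over Cn, 329 probes were higher and 608 lower, and 643 and 508 with median scaling. In the processed values the median log2 fold change of all probes was -0.16 for Cn over Tn and 0.11 for the interaction, against -0.00094 and 0.0098 on the blank-corrected signal.

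Leaving out each of the 8 arrays gave 557 to 1412 probes for Cp over Tp, 137 to 776 for Cp over Cn, 448 to 646 for Tp over Tn, 61 to 135 for Cn over Tn and 354 to 840.0 for the interaction. Log2 fold changes then ran from 0.57 to 0.77 for Lgr5 and 0.86 to 1.04 for Rspo2 in Cp over Cn, -0.063 to 0.082 for Dkk1 in Tp over Tn, 0.64 to 0.83 for Rspo2 in Cn over Tn, and 0.78 to 0.99 for Lgr5 and 1.11 to 1.29 for Rspo2 in the interaction. Lgr5 minus Dkk1 between regions ran from -0.17 to 0.12 and Rspo2 minus Lgr5 by EGFP from -0.0016 to 0.25. None of the 6 permutation tests passed with 1 array left out (exact, adjusted p = 0.0571 or higher). The cause of these changes was not tested. The dimness of the arrays limits all values: 1 probe per gene, 2 arrays per group and spots near the blanks in Tp.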
